A study of Mus musculus with 16 samples.

Results

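The genes described here are 10 transcription factors of the circadian clock in mouse skeletal muscle. They are the activators Arntl (also called Bmal1), Clock and Npas2, the nuclear receptors Nr1d1 (REV-ERBα), Nr1d2 (REV-ERBβ) and Rora, the PAR bZIP factors Dbp, Tef and Hlf, and the bZIP repressor Nfil3. They were chosen by symbol, and all 10 are among the 14538 genes of the deposited table and among the 11841 genes that passed a minimum mean of 10 normalized counts. Npas2, with a mean of 10.6 over the 16 mice, passed only through the vehicle-treated mice, so that its groups were bound to differ. The choice was made with clock genes already known to differ between pair-fed and vehicle mice and between GDF15 and vehicle mice in these data, and values against vehicle are therefore given as a description. Genes past the thresholds against vehicle are counted with limma, and nothing is read from those counts. For a gene against vehicle the text states at most on which side of a threshold it lay, and no p-value is printed.

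RNA was sequenced from the tibialis anterior, a muscle of the shin made mostly of fast fibres, with 1 library per mouse. All mice were wild-type C57BL/6 males (C57BL/6J in the study's methods) that received a NASH diet, high in fat and fructose and with added cholesterol, at about 29 °C from 8 weeks of age. They were housed singly once they had been assigned to the treatment groups. A group of 5 mice received vehicle. Another group of 6 mice received recombinant GDF15, a stress-induced cytokine that reduces food intake through the hindbrain receptor GFRAL, injected under the skin once a day early in the light phase. The remaining group of 5 pair-fed mice, numbered 2 to 6, was given each day as much food as GDF15-treated mice had eaten on the previous day. The protocol names doses of 0.3, 1 and 5 nmol/kg, and which of them these mice received, for how long they were treated and at what hour the muscle was taken are not given in the sources used here. Levels of clock genes change over the day, and whether the groups differed in the hour of sampling cannot be told from these data.

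The mammalian clock is a loop of transcription factors. BMAL1, the product of Arntl, pairs with CLOCK or NPAS2 and activates genes through the E-box, among them Per and Cry, whose products then inhibit the pair, and Nr1d1, Nr1d2, Dbp, Tef and Hlf. REV-ERBα and REV-ERBβ repress, and RORα activates, Arntl, Clock, Npas2 and Nfil3 through a shared element (RORE), while DBP, TEF and HLF activate and NFIL3 represses genes through the D-box. In skeletal muscle the clock is known to time genes of glucose and lipid use.

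The elements that name these arms were looked for on both strands of the RefSeq promoter windows (GRCm38.p6) of the 10 genes, 14 windows that run from 250 bases before to 50 bases after an annotated start. The letters searched were CACGTG for the E-box, CACGTT for its E-prime variant, TAGGTCA or TGGGTCA for the core of the RORE, and TTATGTAA, TTACGTAA or TTATGCAA for the D-box. The RORE core stood in 2 of the 14 windows, 1 each of Arntl and Nfil3, and in 6.45% of all 32851 windows. The E-box stood in 2 of the 14 windows, both of Tef (7.15% of all windows), the E-prime box in 1, that of Nr1d1 (4.68%), and the D-box in 0 (1.78%). The stretches around the matches are printed 5′ to 3′ on the strand of the gene because they show which arm's letters lie next to which start, with the match in capitals. A match is a run of letters and not a measured binding site. Other letters and sequence outside these windows were not searched, so a missing match does not show that a gene lacks the element.
Arntl, chr7:113207511-113207560, plus strand: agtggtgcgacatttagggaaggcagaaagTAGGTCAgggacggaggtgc
Nfil3, chr13:52981015-52981081, minus strand: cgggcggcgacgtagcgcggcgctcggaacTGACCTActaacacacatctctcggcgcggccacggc
Nr1d1, chr11:98775370-98775435, minus strand: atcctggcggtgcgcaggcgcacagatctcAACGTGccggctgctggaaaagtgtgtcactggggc
Tef, first start, chr15:81802516-81802581, plus strand: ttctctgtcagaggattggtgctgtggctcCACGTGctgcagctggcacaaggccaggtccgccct
Tef, second start, chr15:81811246-81811311, plus strand: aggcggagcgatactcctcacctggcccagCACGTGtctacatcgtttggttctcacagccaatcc
Counted from the start, with negative numbers before it, the match begins at position 31 in Arntl and at -12 in Nfil3, where the RORE core reads on the opposite strand. The E-prime box of Nr1d1 begins at -28, also read on the opposite strand, and the E-boxes of Tef begin at -127 and -138 from their starts.

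The deposited log2 values were transformed back to normalized counts, read counts that the authors had scaled between libraries. The depth of a library, approximated from these values, was 11823651 to 14994495 reads in vehicle-treated, 9475676 to 13831272 in GDF15-treated and 11789989 to 14720813 in pair-fed mice, and Pearson's r between 2 mice of a group, across genes, was 0.978 to 0.986. Fast-fibre genes (Myh4, Myh1, Myh2, Acta1, Ckm and Actn3) summed to 1720800 to 2130540 normalized counts per mouse. Slow-fibre genes (Myh7, Tnnt1, Tnni1 and Myl2) summed to 176 to 424, except in GDF15-treated mouse 1 (1715) and pair-fed mouse 3 (1565). The summed markers of adipocytes, red blood cells, Schwann cells, macrophages, endothelium, fibroblasts and satellite cells overlapped between the groups in every comparison. The endothelial genes (Pecam1, Cdh5, Kdr and Vwf) overlapped only in part, with 4215 to 4975 in vehicle-treated, 3624 to 4247 in GDF15-treated and 3757 to 4544 in pair-fed mice, and their part in the results was not tested. In bulk RNA, fewer cells of a type and less RNA per cell cannot be told apart.

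The means of the 3 activators were lower in both pair-fed and GDF15-treated mice than in vehicle-treated mice. Arntl and Npas2 were called in both comparisons and Clock in neither. Arntl (chr7:113207465-113314126, plus strand) encodes BMAL1, the partner that both CLOCK and NPAS2 need. Its normalized counts in vehicle-treated mice 1 to 5 were 452, 396, 329.5, 329.8 and 414, with a mean of 384 ± 53.8 (SD, n = 5). GDF15-treated mice ranged from 212 over a median of 253 to 296, with a mean of 252 ± 31.7 (SD, n = 6). Pair-fed mice 2 to 6 carried 183, 174, 191, 155 and 181, with a mean of 177 ± 13.6 (SD, n = 5). No mouse of one group overlapped with another group, and the GDF15-treated mice stood between the other groups. On the scale of log2(normalized count + 1), Arntl differed from vehicle by -1.11 ± 0.10 (SE) in pair-fed mice, or 0.464 times the vehicle level, and by -0.61 ± 0.10 in GDF15-treated mice, or 0.657 times. The latter lies just past the fold threshold of 0.6, and it lay inside it without vehicle-treated mouse 1 (-0.54), 2 (-0.59) or 5 (-0.58), or without GDF15-treated mouse 2 (-0.57) or 5 (-0.56).

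Clock (chr5:76209868-76304792, minus strand), which encodes the histone acetyltransferase partner of BMAL1, had 416, 348, 384, 314 and 333 normalized counts in vehicle-treated mice 1 to 5 (mean 359 ± 40.8, SD, n = 5). Its level in GDF15-treated mice ran from 276 over a median of 289 to 311 (mean 293 ± 14.8, SD, n = 6). In pair-fed mice 2 to 6 it was 268, 237, 264, 211 and 241 (mean 244 ± 22.9, SD, n = 5). The same order of groups without overlap was seen as in Arntl, over a narrower range. Clock differed from vehicle by -0.55 ± 0.08 in pair-fed and by -0.29 ± 0.08 in GDF15-treated mice, both inside the fold threshold. Npas2 (chr1:39193731-39363236, plus strand), which encodes a relative of CLOCK that can take its place beside BMAL1, was the scarcest of the 10 genes, with 8.49, 21.8, 33.6, 20.6 and 34.2 normalized counts in vehicle-treated mice 1 to 5 (mean 23.7 ± 10.6, SD, n = 5). GDF15-treated mice carried between 0.949 and 7.30, with a median of 3.67 and a mean of 3.82 ± 2.02 (SD, n = 6). Pair-fed values, in mice 2 to 6, were 5.14, 13.6, 4.10, 2.67 and 3.03 (mean 5.71 ± 4.51, SD, n = 5). Vehicle-treated mouse 1 was far below the other vehicle-treated mice and below pair-fed mouse 3, so that those groups overlapped, while every GDF15-treated mouse lay below every vehicle-treated mouse. These levels correspond to about 0.773 to 5.46 reads in a GDF15-treated library and 2.34 to 15.12 in a pair-fed library, against 7.79 to 40.7 in a vehicle library. Npas2 differed from vehicle by -1.94 ± 0.46 in pair-fed and by -2.34 ± 0.44 in GDF15-treated mice, the largest and the least precise differences of the 10 genes. It was the only one of the 10 genes whose mean in GDF15-treated mice did not lie between the means of the other groups.

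**Figure D1:**
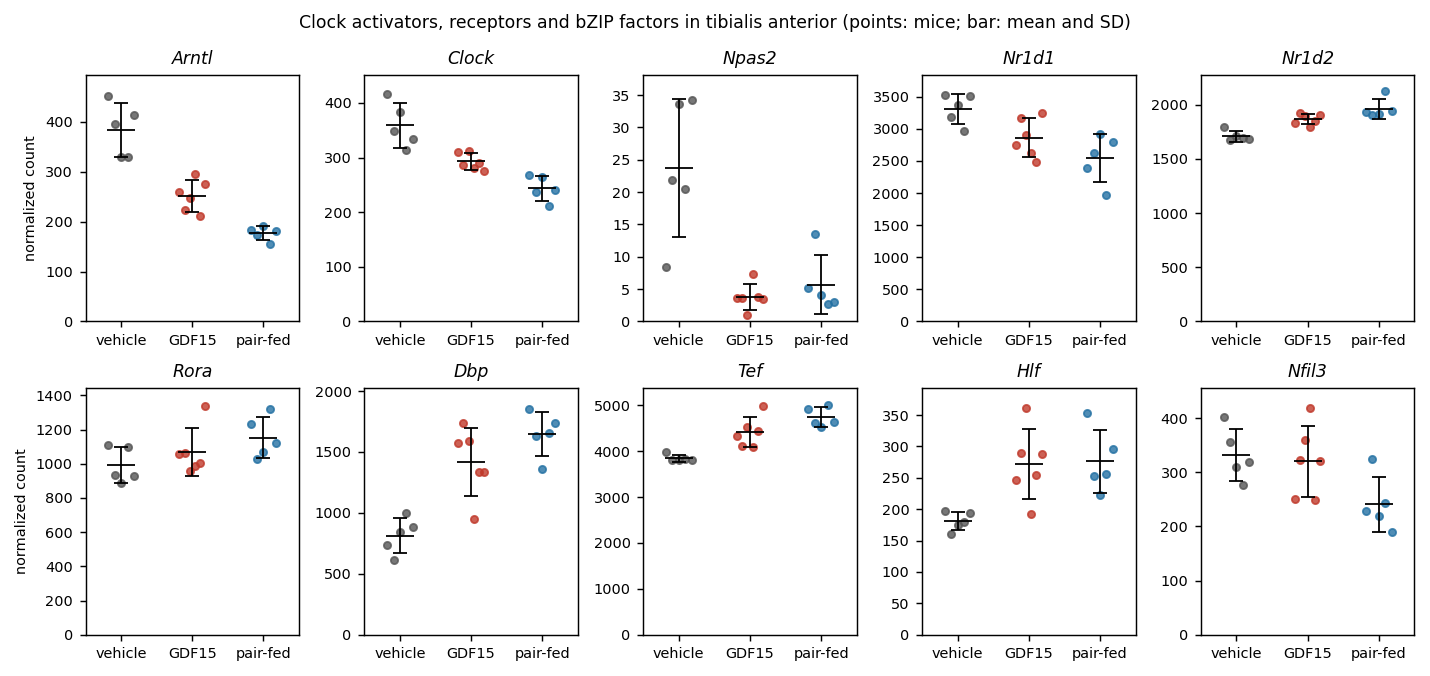
Normalized counts (vertical axes, from 0) of the 10 genes in tibialis anterior of 5 vehicle, 6 GDF15 and 5 pair-fed mice. Points are mice and bars give the mean and SD. Arntl and Clock fall into 3 groups that do not overlap, with the GDF15-treated mice between the others. The means of Dbp, Tef and Hlf run the opposite way.

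The REV-ERB genes, whose products bind the same element as repressors, had means on opposite sides of vehicle, Nr1d1 below and Nr1d2 above it in both groups. Neither was called in either comparison. They had an adjusted p under 0.1 in limma between pair-fed and vehicle mice, inside the fold threshold, and not between GDF15 and vehicle mice. Nr1d1 (chr11:98767932-98775333, minus strand) had 3523, 3185, 3364, 2965 and 3518 normalized counts in vehicle-treated mice 1 to 5 (mean 3311 ± 238, SD, n = 5). Among GDF15-treated mice the lowest value was 2479.9, the median 2825 and the highest 3248 (mean 2861 ± 304, SD, n = 6). Pair-fed mice 2 to 6 were at 2396, 2621, 2924, 1976 and 2800.3 (mean 2543 ± 374, SD, n = 5). All pair-fed mice lay below all vehicle-treated mice, and GDF15-treated mice overlapped with both. Nr1d1 differed from vehicle by -0.39 ± 0.09 in pair-fed and by -0.21 ± 0.09 in GDF15-treated mice. Its exons share 263 bases with those of Thra on the opposite strand, and Thra had 1198 ± 41.5, 1185 ± 59.5 and 1144 ± 67.2 normalized counts in vehicle, GDF15 and pair-fed mice (SD), in overlapping ranges.

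Vehicle-treated mice 1 to 5 carried 1798, 1672, 1712, 1691 and 1681 normalized counts of Nr1d2 (chr14:18204054-18239127, minus strand; mean 1711 ± 51.2, SD, n = 5). The GDF15-treated group ran from 1798 over a median of 1873 to 1927 (mean 1867 ± 48.7, SD, n = 6). The values in pair-fed mice 2 to 6 were 1928, 1905, 1915, 2126 and 1943 (mean 1964 ± 92.0, SD, n = 5). The pair-fed mice all lay above the vehicle-treated mice, and the lowest GDF15-treated mouse was level with the highest vehicle-treated mouse. The differences from vehicle were small and precise, 0.20 ± 0.04 in pair-fed and 0.13 ± 0.04 in GDF15-treated mice. Within each mouse, the log2 level of Nr1d1 minus that of Nr1d2 averaged 0.95 ± 0.09 in vehicle-treated, 0.61 ± 0.13 in GDF15-treated and 0.36 ± 0.28 in pair-fed mice (SD). Pair-fed mouse 5, with the lowest Nr1d1 and the highest Nr1d2 of its group, was the only mouse with a negative value (-0.11). Rora (chr9:68653786-69388246, plus strand), which encodes the activator at the element that the REV-ERBs repress, stood at 1112, 935, 888, 1100.0 and 929 normalized counts in vehicle-treated mice 1 to 5 (mean 993 ± 105, SD, n = 5). It ranged from 958 over a median of 1029 to 1340.0 in GDF15-treated mice (mean 1068 ± 139, SD, n = 6). Pair-fed mice 2 to 6 showed 1231, 1030.0, 1066, 1318 and 1121 (mean 1153 ± 119, SD, n = 5). All 3 groups overlapped. Rora differed from vehicle by 0.22 ± 0.09 in pair-fed and by 0.10 ± 0.09 in GDF15-treated mice.

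The 3 PAR bZIP factors, which bind the D-box as activators, had higher means in both pair-fed and GDF15-treated mice than in vehicle-treated mice. Dbp was called in both comparisons and Tef and Hlf in neither. Dbp (chr7:45705088-45710203, plus strand) had 735, 615, 845, 995 and 882 normalized counts in vehicle-treated mice 1 to 5 (mean 814 ± 145, SD, n = 5). GDF15-treated mice spanned 949 to 1734 around a median of 1454 (mean 1420.2 ± 278, SD, n = 6). Pair-fed mice 2 to 6 reached 1849.6, 1629, 1358, 1656 and 1737 (mean 1646 ± 182, SD, n = 5). Every pair-fed mouse exceeded every vehicle-treated mouse, and so did every GDF15-treated mouse but mouse 4, which fell below vehicle-treated mouse 4. Dbp differed from vehicle by 1.03 ± 0.14 in pair-fed mice, or 2.04 times the vehicle level, and by 0.79 ± 0.14 in GDF15-treated mice, or 1.73 times. The exons of Dbp share 539 bases with those of Sphk2 on the opposite strand. Sphk2 had 271 ± 12.3 normalized counts in vehicle-treated, 264 ± 14.4 in GDF15-treated and 232 ± 6.91 in pair-fed mice (SD). All pair-fed mice lay below all vehicle-treated mice, opposite to Dbp. The ranges of vehicle-treated (255 to 289) and GDF15-treated mice (244 to 282) overlapped.

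Tef (chr15:81802421-81826863, plus strand) was the most abundant by count, and vehicle-treated mice 1 to 5 had 3991, 3807, 3808, 3827 and 3808 normalized counts (mean 3848 ± 80.2, SD, n = 5). In GDF15-treated mice it ran from 4092 over a median of 4386 to 4985 (mean 4413 ± 329, SD, n = 6). Those of pair-fed mice 2 to 6 were 4924, 4619, 4521, 5015 and 4642 (mean 4744 ± 213, SD, n = 5). All GDF15-treated and all pair-fed mice lay above all vehicle-treated mice. The differences were nonetheless 0.30 ± 0.05 in pair-fed and 0.19 ± 0.05 in GDF15-treated mice, well inside the fold threshold. Hlf (chr11:90336536-90390895, minus strand) had 197, 161, 175, 179.8 and 193 normalized counts in vehicle-treated mice 1 to 5 (mean 181 ± 14.8, SD, n = 5). The lowest GDF15-treated mouse had 193, the median was 271 and the highest had 361 (mean 272 ± 56.0, SD, n = 6). In pair-fed mice 2 to 6 the counts were 353, 252, 223, 256 and 296 (mean 276 ± 50.6, SD, n = 5). Pair-fed and vehicle-treated mice did not overlap, and GDF15-treated mouse 4 alone reached into the vehicle range. Hlf differed from vehicle by 0.59 ± 0.14 in pair-fed and by 0.56 ± 0.13 in GDF15-treated mice, just short of the fold threshold of 0.6 in both.

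Nfil3 (chr13:52967209-52981073, minus strand), which encodes the repressor that competes with the PAR bZIP factors for the D-box, had 402, 356, 310.0, 276 and 319 normalized counts in vehicle-treated mice 1 to 5 (mean 332 ± 48.1, SD, n = 5). GDF15-treated mice lay between 248 and 419 with a median of 321 (mean 320.0 ± 65.2, SD, n = 6). The counts of pair-fed mice 2 to 6 were 228, 324, 219, 244 and 189 (mean 241 ± 50.6, SD, n = 5). The 3 groups overlapped, with GDF15-treated mice spread over the whole vehicle range and pair-fed mouse 3 above the other pair-fed mice. Nfil3 differed from vehicle by -0.48 ± 0.15 in pair-fed and by -0.07 ± 0.14 in GDF15-treated mice. Set against its opponent within each mouse, the log2 level of Dbp minus that of Nfil3 averaged 1.28 ± 0.45 in vehicle-treated, 2.15 ± 0.52 in GDF15-treated and 2.78 ± 0.34 in pair-fed mice (SD).

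At an adjusted p-value under 0.1 from limma and a log2 fold change of more than 0.6 in either direction, 3 of the 10 genes were called between pair-fed and vehicle mice, Arntl and Npas2 lower and Dbp higher, where 0.819% of all tested genes were called. The same 3 genes were called in the same directions between GDF15 and vehicle mice, where 0.304% of all tested genes were. Npas2 passed the minimum mean only through the vehicle-treated mice, so its place in the counts of this paragraph carries no weight. At a minimum mean of 50 normalized counts, which leaves Npas2 out, 2 of the other 9 genes were called in each comparison, with 77 and 33 of all genes. By the adjusted p-value alone the numbers were 9 of 10 (all genes 6.37%) and 5 of 10 (0.769%). The 5 were Arntl, Npas2, Dbp, Tef and Hlf, and the number was 2, Arntl and Dbp, without vehicle-treated mouse 2, 3 or 5. It was 3 without vehicle-treated mouse 1 or 4, GDF15-treated mouse 1, 3, 5 or 6, or pair-fed mouse 3, and it was 2 with the mouse number as a block. The 9 of the former comparison were 7 to 9 with a library left out. The groups did not overlap for 7 of 10 genes in the former comparison (5.44%) and for 4 of 10 in the latter (1.65%). These comparisons share the vehicle-treated mice and were known when the genes were chosen. Without pair-fed mouse 3, whose slow-fibre sum was high, Hlf joined the 3 called genes in the former comparison, and without GDF15-treated mouse 1 the latter still held 3. Without vehicle-treated mouse 2 or mouse 5 the latter held 1, Dbp, because Arntl fell inside the fold threshold and Npas2 below the minimum mean. The median log2 fold change of the 10 genes was -0.10 and 0.02 against 0.00 over all tested genes in both, since 5 of the 10 genes were higher and 5 lower in each, and the median size was 0.51 and 0.25 against 0.11 and 0.09.

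**Figure D2:**
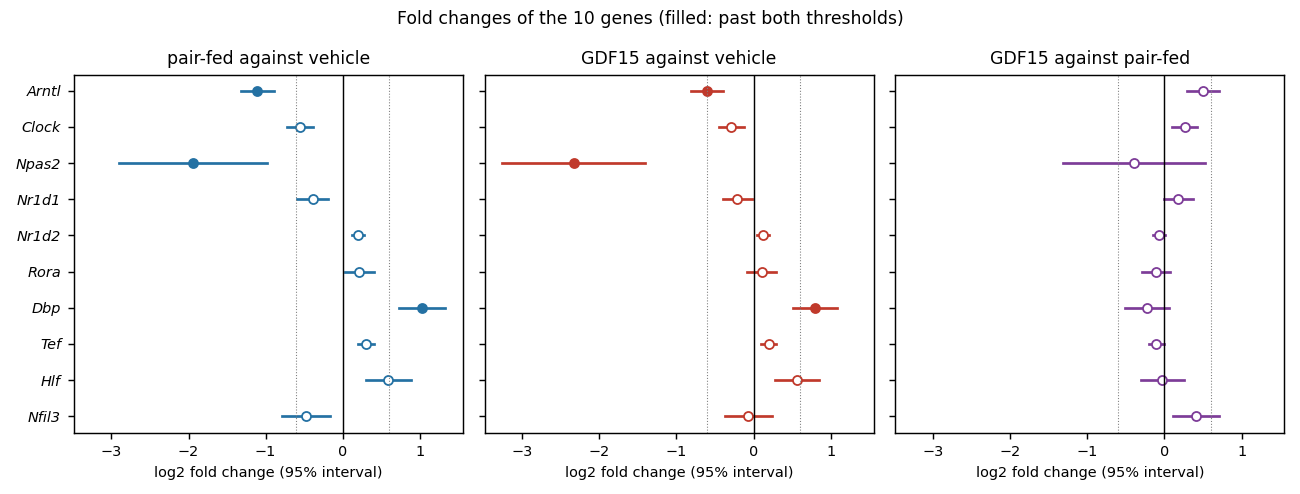
Log2 fold changes of the 10 genes (horizontal axes, on log2(normalized count + 1)) with 95% intervals from limma, in pair-fed against vehicle, GDF15 against vehicle and GDF15 against pair-fed mice. Filled points pass both thresholds and dotted lines mark the fold threshold of 0.6. Arntl, Npas2 and Dbp are filled in both comparisons with vehicle, and no point is filled between GDF15 and pair-fed mice.

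The comparison of GDF15-treated with pair-fed mice was designed to match the daily amount of food. The hours at which the mice behind these muscle samples ate are not given in the sources used here, and their part in these differences was not tested. Limma's adjusted p-values over all 11841 genes are given for it, with the reservation that a summary of clock genes in these groups was known when the genes were chosen. None of the 10 genes passed both thresholds (0.279% of all tested genes did), 1 had an adjusted p under 0.1 (2.17%) and 4 had an unadjusted p under 0.05 (13.2%). Arntl was higher in GDF15-treated than in pair-fed mice by 0.50 ± 0.10 (SE; 95% interval 0.29 to 0.71; limma adjusted p = 0.0276), with all 6 GDF15-treated mice above all 5 pair-fed mice, and under 28 alternatives the adjusted p lay between 0.0182 and 0.0903. Clock was the other gene whose groups did not overlap (1.77% of all tested genes), with a difference of 0.26 ± 0.08 (95% interval 0.10 to 0.43; limma adjusted p = 0.122). Nfil3 differed by 0.41 ± 0.14 (95% interval 0.11 to 0.71; limma adjusted p = 0.215) and Tef by -0.11 ± 0.05 (95% interval -0.20 to -0.01; limma adjusted p = 0.324).

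The other 6 genes had adjusted p-values from 0.413 to 0.953 in limma. The 95% intervals of the log2 difference between GDF15 and pair-fed mice were -0.01 to 0.36 for Nr1d1, -0.15 to 0.01 for Nr1d2 and -0.30 to 0.07 for Rora. They were -0.52 to 0.06 for Dbp and -0.31 to 0.25 for Hlf. The interval of Npas2, -1.32 to 0.53, was wider than that of any other of the 10 genes and reaches past the fold threshold on the lower side. In 9 of the 10 genes the mean of GDF15-treated mice lay between those of vehicle-treated and pair-fed mice, as it did in 42.4% of all tested genes. The genes were chosen with differences from vehicle known, so that share is not a like comparison and nothing is read from it. Some of these means were close, with Hlf at 272 in GDF15-treated and 276 in pair-fed mice. Nfil3 stood at 320.0 in GDF15-treated and 332 in vehicle-treated mice. The order of the groups describes the means only. The difference between GDF15 and pair-fed mice passed an adjusted p of 0.1 for Arntl alone, for Nfil3 as well without pair-fed mouse 3, and for Clock as well without vehicle-treated mouse 1.

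**Figure D3:**
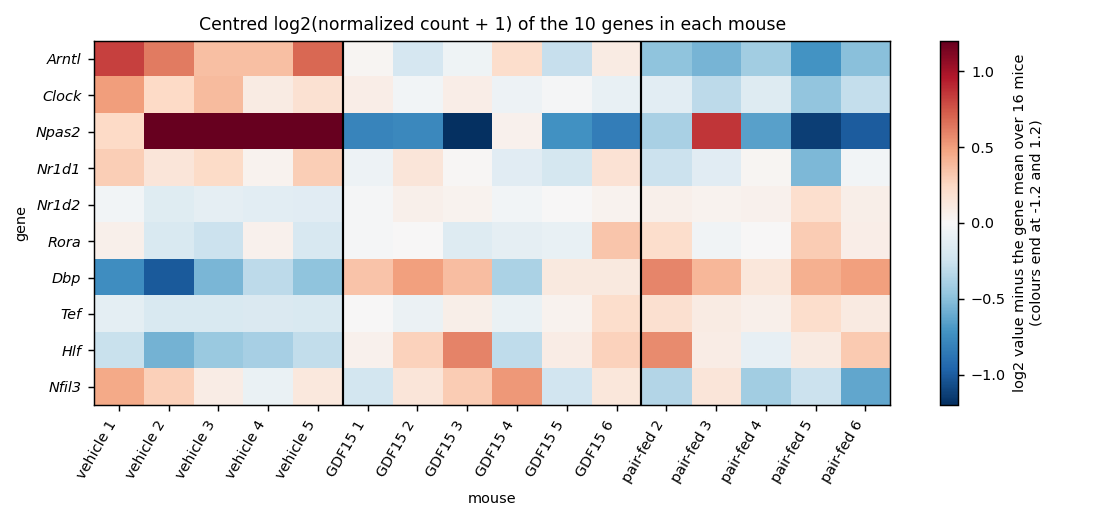
Log2(normalized count + 1) of each gene (rows) in each of the 16 mice (columns), minus the mean of the gene over the mice, with red above and blue below the mean and colours that end at -1.2 and 1.2. Vehicle-treated mice are red in the rows of Arntl and Clock and blue in those of Dbp and Hlf, and pair-fed mice show the reverse, apart from mouse 4 in the row of Hlf, while Nr1d2, Rora and Tef stay pale.

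The level per kilobase of transcript, the normalized count divided by the median length of the coding transcripts in kilobases, allows genes to be compared with each other. In vehicle-treated mice Nr1d1 was the most abundant at 1217 ± 87.4 per kilobase (SD, n = 5), followed by Tef at 907 ± 18.9, Dbp at 650.4 ± 116 and Nr1d2 at 367 ± 10.98. Nfil3 (164 ± 23.8), Rora (147 ± 15.57) and Arntl (141 ± 19.7) came next, and their neighbouring ranges overlapped. Clock at 48.0 ± 5.46, Hlf at 32.1 ± 2.63 and Npas2 at 5.60 ± 2.51 were the scarcest. Apart from Nfil3 with Rora and Rora with Arntl, no neighbours in this order overlapped. By mean count in vehicle-treated mice, Tef and Nr1d1 stood at the 96.9 and 96.2 percentiles of the tested genes, Arntl at 65.8 and Npas2 at 9.20. By the mean over all 16 mice they stood at 97.3, 95.4, 56.3 and 0.625.

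**Figure D4:**
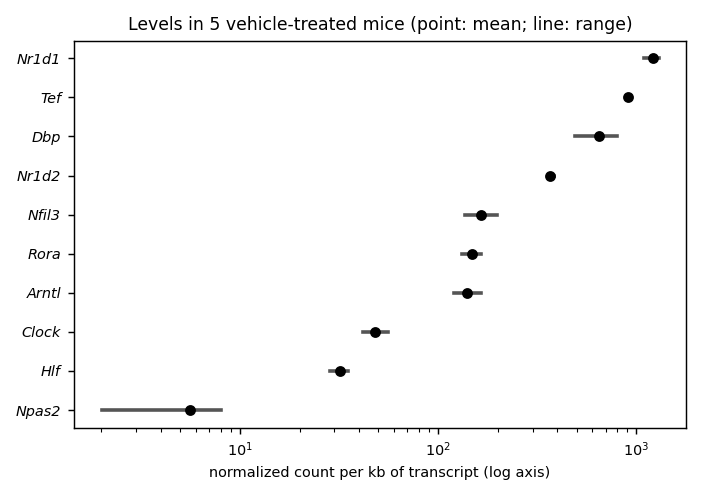
Level of each gene in 5 vehicle-treated mice as normalized count per kilobase of transcript (horizontal log axis). Points are means and lines span the lowest and highest mouse. The levels run from 5.60 for Npas2 to 1217 for Nr1d1, and Nfil3, Rora and Arntl share a range.

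Mice of a group also differed from each other. Vehicle-treated mouse 1 was the highest of its group for 8 of the 10 genes and the lowest for Npas2. GDF15-treated mouse 4, whose library was the shallowest at 9475676 reads, was the highest of its group for Arntl, Npas2 and Nfil3 and the lowest for Nr1d2, Dbp, Tef and Hlf. Pair-fed mouse 5 was the lowest of its group for Arntl, Clock, Npas2 and Nr1d1 and the highest for Nr1d2, Rora and Tef. GDF15-treated mouse 4 therefore stood toward the vehicle-treated mice on 6 of these 7 genes, all but Nfil3, for which its count of 419 lay above all of them, and pair-fed mouse 5 stood away from them on all 7. The part of depth in these values was not tested.

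Arntl and Dbp, the genes with the widest spread over the mice after Npas2, ran against each other. The log2 level of Dbp minus that of Arntl, a difference that holds transcript length constant from mouse to mouse, was 0.63 to 1.59 in vehicle-treated mice (mean 1.07 ± 0.41, SD, n = 5), 1.68 to 2.96 in GDF15-treated mice (2.47 ± 0.45, n = 6) and 2.82 to 3.41 in pair-fed mice (3.21 ± 0.23, n = 5). No GDF15-treated or pair-fed mouse overlapped with the vehicle-treated mice, and the lowest GDF15-treated mouse was again mouse 4. Arntl minus Clock averaged 0.09 ± 0.20, -0.22 ± 0.21 and -0.46 ± 0.05 in the same order of groups, so that the spread between pair-fed mice was the smallest of the 3. Both pairs were chosen with the values of their genes known.

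**Figure D5:**
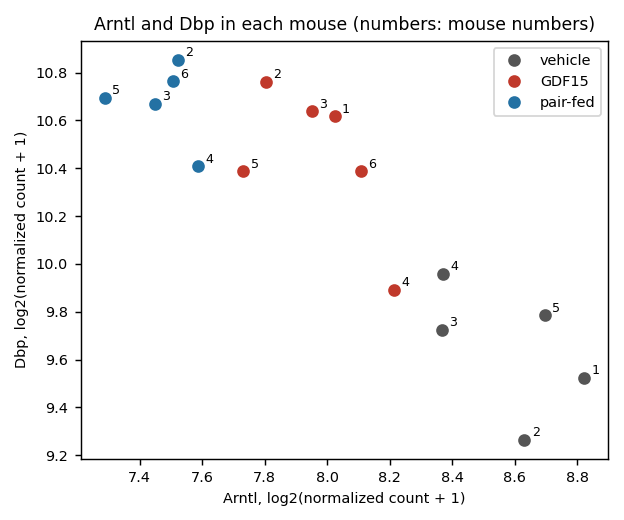
Log2(normalized count + 1) of Dbp (vertical axis) against that of Arntl (horizontal axis) in 16 mice, numbered within their group. Vehicle-treated mice lie at the lower right with high Arntl and low Dbp, pair-fed mice at the upper left, and GDF15-treated mice between them, with GDF15-treated mouse 4 nearest to the vehicle-treated mice.

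Likeness to Arntl and to Dbp was measured over all 16 mice as the root mean square difference of log2 levels after each gene was centred on its own mean, where 0 is the same pattern. Arntl itself varied by 0.46 and Dbp by 0.49 around their means on this scale. Outside the 10 genes, those most like Arntl were Auts2 (0.24), Efr3b (0.27), Dyrk2 (0.28), Sdc4 (0.28) and Wsb1 (0.29). Auts2, for example, averaged 451 normalized counts in vehicle-treated, 295 in GDF15-treated and 204 in pair-fed mice. The mirror image of Arntl was closest in Per3 (0.19), Usp2 (0.26), Per1 (0.26), Cry2 (0.26) and Lrrc61 (0.29). Per3, Per1 and Cry2 belong to the repressor arm, which was already known to differ between these groups, so nothing is read from their place here.

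The genes most like Dbp were Per3 (0.23), Usp2 (0.27), Zfp503 (0.27), Cry2 (0.28) and Rrp1b (0.31). Its mirror image was closest in Efr3b (0.22), Pcdh12 (0.29), Rflnb (0.29), Cnnm4 (0.30) and Masp1 (0.30). Efr3b was thus near both patterns, with 187, 140.2 and 106 normalized counts in vehicle, GDF15 and pair-fed mice. Among the 10 genes, Arntl and Dbp were near mirror images (0.23), Hlf was near Dbp (0.25) and Clock near Arntl (0.27). The points are the same 16 libraries throughout, and a low value says only that levels went together across them.

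The opposite arm of the loop, which the same groups had already shown to differ, is given as a description. Of 11 tested genes of the repressor arm and its modifiers, 5 were called higher in pair-fed than in vehicle-treated mice (0.329% of all tested genes were called higher) and 0 lower. These were the PER genes Per1 (1.46 ± 0.14), Per2 (1.61 ± 0.16) and Per3 (0.79 ± 0.07), Cry2 (0.65 ± 0.09), and Ciart (1.64 ± 0.27), whose product represses CLOCK and BMAL1. In GDF15-treated mice 2 were called higher than in vehicle-treated mice (0.203%), Per1 (1.03 ± 0.13) and Per2 (1.31 ± 0.15), and between GDF15 and pair-fed mice 0 were called by limma (0.279%), with 6 at an unadjusted p under 0.05 (13.2% of all tested genes). By the adjusted p alone the latter comparison held 2 (2.17%), Per3 (-0.33 ± 0.07; limma adjusted p = 0.0297) and Cry2 (-0.31 ± 0.08; limma adjusted p = 0.0821), both lower in GDF15-treated mice and so opposite to Arntl. The median log2 fold change of the 11 genes was 0.45, 0.34 and -0.15 in the 3 comparisons against 0.00 over all tested genes.

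Genes known to cycle in many tissues, of which 8 were tested, held 1 called gene in each comparison with vehicle, where 0.819% of all tested genes were called for pair-fed and 0.304% for GDF15 mice. The lists of outputs and relatives were also chosen with earlier results known, and their values against vehicle are a description. Usp2, a deubiquitinase gene known as an output of the clock, averaged 2244 normalized counts in vehicle-treated, 3423 in GDF15-treated and 3557 in pair-fed mice. It was higher by 0.67 ± 0.07 in pair-fed and by 0.60 ± 0.07 in GDF15-treated mice. By the adjusted p alone the count was 5 of 8 in pair-fed (6.37% of all tested genes) and 3 of 8 in GDF15-treated mice (0.769%). Tspan4 (0.57 ± 0.11 and 0.55 ± 0.10) and Tsc22d3 (0.33 ± 0.07 and 0.35 ± 0.07) were among them in both, and Wee1 (0.60 ± 0.17) and Rbm3 (0.44 ± 0.11) in pair-fed mice, and these 4 were named after their values were seen. Between GDF15 and pair-fed mice 0 of the 8 had an adjusted p under 0.1 (2.17%) or an unadjusted p under 0.05 (13.2%) in limma. Their median log2 fold change was 0.39, 0.36 and -0.03 in the 3 comparisons.

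Of 10 tested genes listed as outputs of the muscle clock, 0 were called in any comparison, against 0.819%, 0.304% and 0.279% of all tested genes in pair-fed against vehicle, GDF15 against vehicle and GDF15 against pair-fed mice. At an unadjusted p under 0.05 the counts were 6, 4 and 3 of 10, against 18.9%, 11% and 13.2%, and the median log2 fold change was 0.16, 0.09 and -0.13, against 0.00 over all tested genes. Tcap, which encodes the titin cap of the sarcomere, was higher in pair-fed than in vehicle-treated mice by 0.30 ± 0.05 and lower in GDF15-treated than in pair-fed mice by 0.17 (limma adjusted p = 0.0821), and Hk2, the hexokinase of muscle, was higher in pair-fed mice by 0.28 ± 0.06, while Pdk4, the kinase gene that restrains glucose oxidation, was lower by 0.58 ± 0.25 in pair-fed and by 0.71 ± 0.24 in GDF15-treated mice and did not reach an adjusted p of 0.1. These 3 were named after their values were seen. Of 4 tested genes listed as targets of the PAR bZIP factors, 1 was called, between pair-fed and vehicle mice (0.819% of all tested genes). Ppara, which encodes the fatty acid receptor PPARα, averaged 72.7 normalized counts in vehicle-treated and 41.8 in pair-fed mice, lower by 0.84 ± 0.22. Of the other 3, Pdxk (0.23 ± 0.08) and Por (0.14 ± 0.08) were higher and Alas1 (-0.27 ± 0.09) lower in pair-fed mice, none of them called.

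Of 9 tested relatives and cofactors of the 10 genes, among them Arntl2, the C/EBP genes and the REV-ERB corepressor genes Ncor1 and Hdac3, 0 were called in any comparison, against the same shares of all tested genes. By the adjusted p alone the counts were 2 (6.37%), 0 (0.769%) and 1 (2.17%). Cebpb (0.45 ± 0.10) and Cebpg (-0.35 ± 0.07) were the 2 between pair-fed and vehicle mice, and Cebpg the 1 between GDF15 and pair-fed mice (0.23 ± 0.06; limma adjusted p = 0.0877). Both were named after their values were seen. Unadjusted p-values under 0.05 numbered 2 of 9 for pair-fed (18.9% of all tested genes) and 2 of 9 for GDF15 against vehicle (11%), and 4 of 9 between GDF15 and pair-fed mice (13.2%).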

How the data were processed

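RNA-seq of tibialis anterior was compared between mice given vehicle (5) or GDF15 (6) and pair-fed mice (5), grouped by sample title. The authors sequenced directional libraries as read pairs of 50 bp, ran Trim Galore on them, obtained transcript levels from Salmon and worked with DESeq2 from there. The submitters' notes name mm10, and versions and the strand setting are not given in the sources used here. The table the authors deposited is named as normalized counts but holds log2 values of the variance stabilizing transformation of DESeq2 (7.32 to 19.96, with 8459 at the lowest value). They were transformed back with the closed-form inverse, after which in each library 92.7% to 98.1% of the low values of single-transcript genes lay less than 0.1 reads from a whole number, against 20.0% to 26.8% in genes with over 4 transcripts. Whole reads were therefore not recovered and no count test was run.

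The 11841 genes whose mean reached 10 normalized counts entered limma 3.58.1 in R 4.3.3 as log2(normalized count + 1) (trend, 3 groups in 1 fit, Benjamini-Hochberg over all genes). The test was checked on simulated data. Called genes passed an adjusted p of 0.1 and a log2 fold change of 0.6 in size, the study's thresholds for this muscle. Fold changes on this scale understate those of low genes. The rest was done in Python 3.11.15 (matplotlib 3.10.9, numpy 2.4.6, pandas 2.3.3). Positions and transcript lengths are from GENCODE vM21 (GRCm38) and promoters from RefSeq, both of which held all 10 genes. The members and gene lists were chosen with earlier results of these data known. Named were the 10 genes, called genes of the lists, and the 5 genes most like and most opposite to Arntl and to Dbp. Uncalled list genes were named outside this rule, after their values were seen or as examples of what a list holds. Alternatives were other pseudocounts, minimum counts, scalings, spread estimates, thresholds, a replicate block and each library left out.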

Additional observations from a re-analysis of the deposited data

Results flagged for a closer look

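A mouse was picked out where its gap to the nearest mouse of its group, divided by the range of the group, exceeded Dixon's 95% critical value (0.71 for 5 mice and 0.625 for 6). Of 93 groups of values, 30 of them of the 10 genes, 5 met this, 4 of them among the 30, and chance does so in about 1 in 20 groups. Npas2 in pair-fed mouse 3 had 13.6 normalized counts, with the other pair-fed mice between 2.67 and 5.14. Nr1d2 in pair-fed mouse 5 had 2126, with the others between 1905 and 1943. Rora in GDF15-treated mouse 6 had 1340.0, above the 958 to 1066 of the others. Tef in vehicle-treated mouse 1 had 3991, with the others between 3807 and 3827. Ppara in GDF15-treated mouse 5 had 72.9, against 35.6 to 48.6 in the others.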

How the results depend on the processing

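The number of the 10 genes called between pair-fed and vehicle mice was 3, and it was 2 to 4 with a library left out. It was 1 on the deposited log2 values, whose scale compresses low counts (17 of all genes), and 9 without the fold threshold (754 of all genes). Between GDF15 and vehicle mice the number was 3, and it was 1 to 4 with a library left out. It was 1 on the deposited values (9 of all genes) and 5 without the fold threshold (91 of all genes). Between GDF15 and pair-fed mice it was 0, 1 without the fold threshold (257 of all genes) and 0 with any library left out. Over all genes the calls in these comparisons, 97, 36 and 33, ran from 60 to 158, 18 to 38 and 15 to 62 with a library left out (158 and 62 without pair-fed mouse 3), and at an adjusted p under 0.05 they were 56, 23 and 18. Of 30 fold changes of the 10 genes, 28 kept their direction under every alternative, and 22 kept both their direction and their call at the joint thresholds. By the adjusted p alone, 23 stayed on 1 side of 0.1 under every alternative and 7 crossed it. Nfil3 between GDF15 and vehicle mice changed sign without vehicle-treated mouse 1 (0.0033) or GDF15-treated mouse 5 (0.00014) and ranged from -0.15 to 0.0033 over the left-out libraries, and Hlf between GDF15 and pair-fed mice without GDF15-treated mouse 4 (0.064), pair-fed mouse 2 (0.064) or pair-fed mouse 6 (0.00095) and ranged from -0.12 to 0.064, none of them called. Npas2 has no value at a minimum mean of 50 or without any 1 of vehicle-treated mice 2 to 5, because it then fell below the minimum. With the mouse number as a replicate block, 3, 2 and 0 of the 10 genes and 81, 20 and 29 of all genes were called in the 3 comparisons, and Npas2 between GDF15 and vehicle mice was no longer called (log2 fold change -2.30). Over all tested genes, same-numbered mice did not deviate together (r across genes of -0.10 to 0.07 in 14 pairs, 0 of them over 0.1). A value over all genes cannot show whether these mice shared something that moved only a few genes. At these depths genes near 10 normalized counts, such as Npas2, rest on few reads per library.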
